A study of Mus musculus with 6 samples.

Results

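Genes of motile cilia, their assembly factors and the transcription factor that switches them on were followed in mouse brains with and without Bahd1. The genes were taken by name, and a part in motile cilia was not tested for each. They were the rows of the deposited count table whose gene name was a numbered Dnah, Dnai, Dnaaf or Cfap gene or a tektin, together with 10 genes chosen by name (Foxj1, Ccdc39, Ccdc40, Ak7, Hydin, Spef2, Rsph1, Rsph4a, Rsph9 and Drc1). This gave 57 genes of 53801 in the table, and the rule reads gene names alone. No row was named Dnai, since the table lists the dynein intermediate chains as Dnaic1 and Dnaic2. All 57 passed the filter on low counts, which kept 23975 genes.

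RNA-seq of polyadenylated RNA was made from a single brain hemisphere of each of 3 Bahd1-KO mice (Bahd1-/-) and 3 Bahd1-WT mice (Bahd1+/+). All 6 were C57BL/6 males of about 70 weeks. The knockout was in the whole body, and the study obtained its mutants by crossing Bahd1+/- mice. A hemisphere holds many cell types, of which ependymal cells are a thin layer. Read counts per library ranged from 42297150 to 93557948. Bahd1 itself had 1383, 844 and 1099 counts in Bahd1-WT mice 1, 2 and 3, and 0, 14 and 1 counts in Bahd1-KO mice 1, 2 and 3, which fits the labels.

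Motile cilia are hair-like extensions that beat. In the brain they stand in tufts on ependymal cells, which line the ventricles and move cerebrospinal fluid. Each cilium has a ring of doublet microtubules around a central pair. Outer and inner dynein arms slide the doublets against each other, nexin links hold them together, and radial spokes pass signals from the central pair to the arms. Dynein arms are put together in the cytoplasm by assembly factors before they enter the cilium. Foxj1, a forkhead transcription factor, works with RFX factors to switch on genes for all these parts.

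None of the motile cilia genes met the criteria for a DEG (differentially expressed gene), an adjusted p under 0.05 with at least a 2-fold change by edgeR's quasi-likelihood test. That test called 0 of the 57, beside 2 of 23975 genes (0.00834%). Summed over the 57, the normalized level was 458, 480 and 458 CPM (counts scaled to a common library total) in Bahd1-WT mice 1 to 3 and 448, 420 and 381 CPM in Bahd1-KO mice 1 to 3. The sum was lower in each Bahd1-KO mouse than in each Bahd1-WT mouse, but this rested on the 3 most abundant members, Cfap36, Cfap20 and Cfap97. Without them the sum over the other 54 was 218.8, 200.1 and 202.6 CPM in Bahd1-WT mice 1 to 3 and 200.4, 240.0 and 202.2 CPM in Bahd1-KO mice 1 to 3, with ranges that overlapped and Bahd1-KO mouse 2 highest. In bulk tissue, fewer cells of a type and less RNA in each cell cannot be told apart. Nothing in the labels pairs animals across genotypes, and p-values measure the spread between these mice.

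Below the DEG criteria, the members were split in direction. The log2 fold change (Bahd1-KO over Bahd1-WT) was above 0 for 34 genes and below 0 for 23, where 46.6% of all genes were above 0. The median was 0.23, beside -0.06 over all genes tested, and it ranged from -0.72 for Ccdc39 to 2.60 for Dnaaf3. At an unadjusted p under 0.05, 13 members were higher (all genes, 19.9%) and 6 were lower (all genes, 12%). These 19 members are 33.3% of the list, against 31.8% of all genes, so the share of members past this threshold was near the background. The count was 12, 6 and 10 without Bahd1-WT mouse 1, 2 or 3 (all genes, 23.6%, 18.1% and 24.1%), and 26, 8 and 15 without Bahd1-KO mouse 1, 2 or 3 (all genes, 42.9%, 24% and 27%). At an adjusted p under 0.1, 7 members were higher (all genes, 14.7%) and 2 were lower (all genes, 4.77%). The 7 were Foxj1, Dnaaf3, Cfap157, Dnah10, Rsph9, Tekt5 and Tekt1, and the 2 were Ccdc39 and Cfap69. This count of 9 was 0 when any Bahd1-WT mouse or Bahd1-KO mouse 3 was left out and with a block on replicate number (all genes, at most 0.0375%), 3 without Bahd1-KO mouse 2 (all genes, 10.7%), and 26 without Bahd1-KO mouse 1 (all genes, 40.6%). The swings in the members' count thus went with swings in the whole table. In 10 genes every Bahd1-KO mouse was above every Bahd1-WT mouse (all genes, 20.6%), and in 11 every Bahd1-KO mouse was below (all genes, 19.3%).

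**Figure D1:**
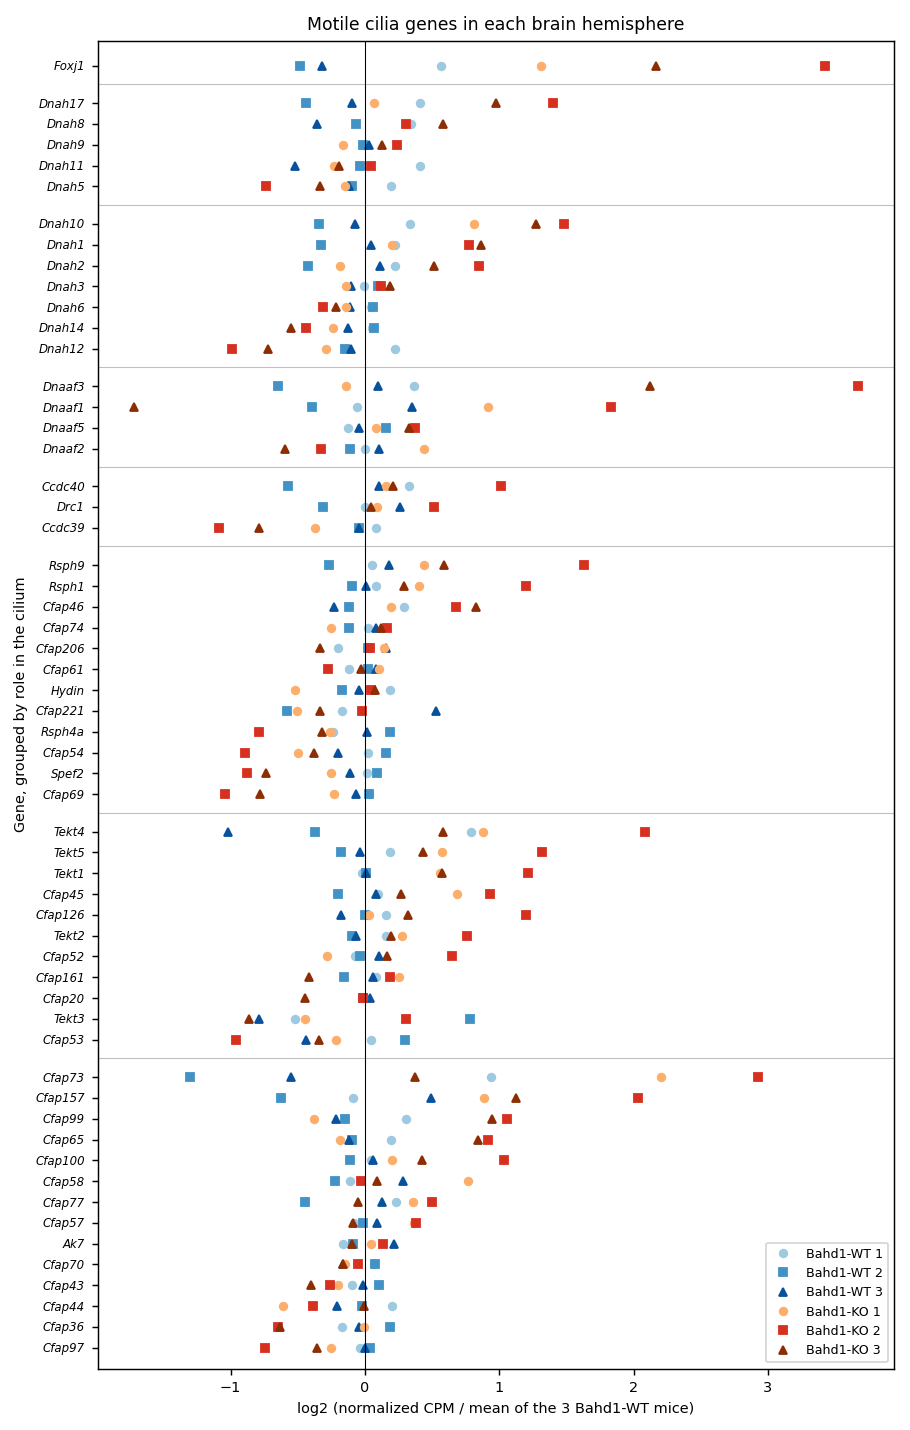
Each row is 1 of the 57 genes, grouped by role in the cilium, and each point is 1 mouse. The x axis is the log2 ratio of normalized CPM to the mean of the 3 Bahd1-WT mice, so 0 is that mean. Bahd1-KO mouse 2 (red squares) has the highest level in 27 of the 57 genes and the lowest in 12.

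Bahd1-KO mouse 2 was the highest more often among the motile cilia genes than over all genes tested, and the lowest less often. It had the highest level of the 6 mice in 27 of the 57 and the lowest in 12, whereas over all genes tested it was highest in 33.3% and lowest in 30.8%. The median over the members of the log2 level relative to the Bahd1-WT mean was 0.06, -0.09 and -0.03 in Bahd1-WT mice 1 to 3. It was 0.04, 0.33 and 0.08 in Bahd1-KO mice 1 to 3. Among 19 dynein arm docking and assembly partners outside the 57, Bahd1-KO mouse 2 was highest in 11 (median 0.68), and among 6 tanycyte markers in 4 (median 0.64). It was highest in 3 of 11 ependymal markers, 3 of 10 choroid plexus markers and 0 of 12 airway and lung markers. Among ciliary lists, it was highest in 6 of 18 multiciliation control, 8 of 24 spoke partner and 13 of 33 intraflagellar transport genes. Without Bahd1-KO mouse 2 the median log2 fold change of the members was 0.04 and 30 genes were higher.

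The number of members called varied with the tool and the mice used. DESeq2 without a prior on fold changes called 6 members (all genes, 11.5%), namely Rsph9, Tekt4, Foxj1, Dnah10, Cfap157 and Dnaaf3, and with a prior it called 5 of these (all genes, 10.5%), without Rsph9. In edgeR, 4 were called when genes with low counts were kept (all genes, 8.45%), 6 without Bahd1-KO mouse 1 (all genes, 16.7%), among them Cfap99 (log2 fold change 1.03), and 1, Foxj1, without Bahd1-KO mouse 2 (all genes, 1.98%). Each of these members was higher in Bahd1-KO, as were most genes called in the whole table. By DESeq2 without a prior, 10.5% of all genes were called higher and 1.06% lower. In each of these settings the share of members called was near or below that of all genes. A replicate block on the labels' numbers called 0 members (all genes, 0.0292%), and 11 had an unadjusted p under 0.05 with it (all genes, 21.8%).

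How high or low a member was in Bahd1-KO followed its base composition. Across the 57 genes, the log2 fold change and the GC content of the longest transcript had a Spearman rho of 0.88 and a Pearson r of 0.836. Across the 23940 genes with a GC value the coefficients were 0.745 and 0.664. These are descriptions across genes, which share the same 6 libraries and are not independent replicates. Of the 19 members with the lowest GC (39.9% to 47.9%), 17 were lower in Bahd1-KO (median log2 fold change -0.40). Of the 19 with the highest GC (53.4% to 61.4%), 18 were higher, with a median of 0.83. The median over all tested genes in these 2 GC ranges was -0.38 and 0.86, close to the medians of the members. The 19 members in between (48% to 53.2%) had a median of 0.24, beside 0.08 over all genes of that range. When genes were binned by 2 points of GC content, 39 members lay inside the quartiles of all genes in their bin, 13 lay above and 5 below.

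The relation to GC content also differed from mouse to mouse. Across the 57 genes, the Spearman rho between GC content and a mouse's deviation from the mean of the 6 was -0.58, -0.821 and -0.665 in Bahd1-WT mice 1 to 3. In Bahd1-KO mice 1 to 3 it was 0.0679, 0.86 and 0.534. GC-rich members were thus relatively low in all 3 Bahd1-WT mice, relatively high in Bahd1-KO mice 2 and 3, and neither in Bahd1-KO mouse 1. Since the libraries differed this way along the same line as the genotypes, genotype and base composition cannot be told apart from these counts alone. Comparisons below are given as fitted and, where stated, with an offset that removes from each library its own smooth curve of level against GC content and transcript length.

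**Figure D2:**
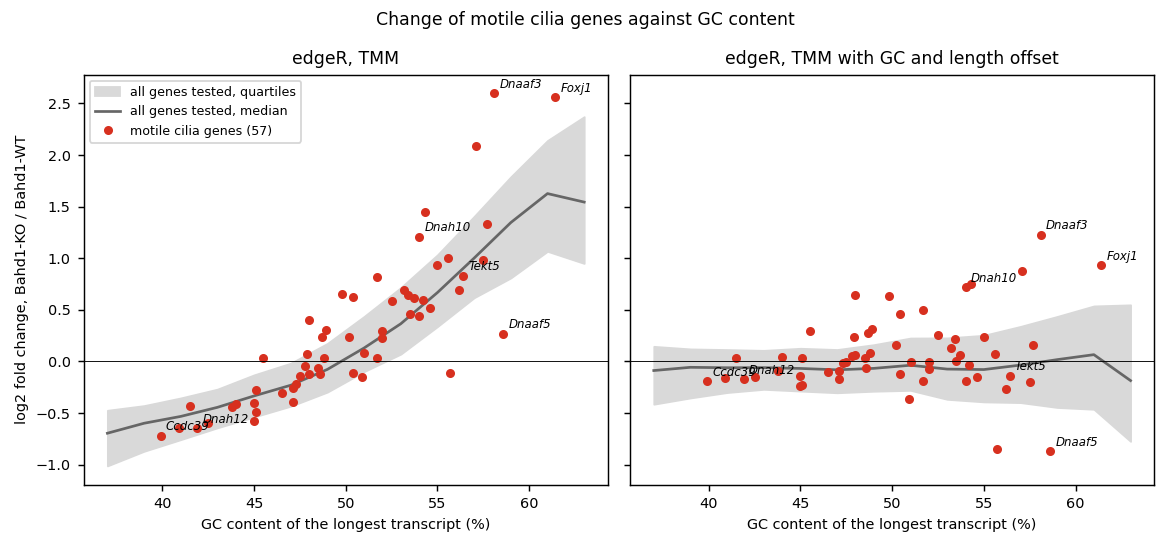
The y axis is the log2 fold change, Bahd1-KO over Bahd1-WT, and the x axis the GC content of each gene's longest transcript in percent. Red points are the 57 motile cilia genes, the grey line and band are the median and quartiles of all genes tested in bins of 2 points of GC. On the left the members climb with the band (Spearman rho 0.88). On the right, with the GC and length offset, they spread around 0 (rho 0.212).

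With the offset, the members' median log2 fold change was 0.00 (all genes, -0.06), and 29 of the 57 were higher, beside 42.5% of all genes. Again 0 were called, beside 0.0167% of all genes. At an unadjusted p under 0.05, 6 members were higher (all genes, 9.89%), namely Foxj1, Dnah10, Dnah8, Cfap45, Tekt1 and Dnaaf3, and Dnaaf5 alone was lower (all genes, 11.5%). At an adjusted p under 0.1, Foxj1 was the only member left (all genes, 5.99% in either direction). Groups did not overlap for 12 members, 7 higher (all genes, 11.6%) and 5 lower (all genes, 14.6%). Without Bahd1-KO mouse 2 as well, the offset gave a median of -0.07 and 22 members higher.

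The coding sequences show the contrast in base composition. The middle 120 coding bases of 4 members are printed with G and C in capitals, read in frame from the GENCODE M21 transcripts, with positions counted from 1 at the start codon. Foxj1 had the highest GC content and Ccdc39 the lowest of the 57. Dnah10 and Dnah12 are both inner arm dynein heavy chains, and their log2 fold changes lay on opposite sides of 0.
Foxj1, bases 571 to 690: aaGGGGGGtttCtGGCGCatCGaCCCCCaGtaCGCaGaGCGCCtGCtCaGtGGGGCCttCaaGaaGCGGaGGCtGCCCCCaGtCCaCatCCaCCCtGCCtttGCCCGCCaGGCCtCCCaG
Ccdc39, bases 1345 to 1464: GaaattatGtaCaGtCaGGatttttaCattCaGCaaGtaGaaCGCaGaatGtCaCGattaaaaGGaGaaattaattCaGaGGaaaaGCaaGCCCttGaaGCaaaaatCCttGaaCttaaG
Dnah10, bases 6826 to 6945: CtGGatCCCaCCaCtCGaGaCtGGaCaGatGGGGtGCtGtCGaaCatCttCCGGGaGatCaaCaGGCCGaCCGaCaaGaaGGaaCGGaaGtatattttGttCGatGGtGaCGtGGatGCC
Dnah12, bases 5881 to 6000: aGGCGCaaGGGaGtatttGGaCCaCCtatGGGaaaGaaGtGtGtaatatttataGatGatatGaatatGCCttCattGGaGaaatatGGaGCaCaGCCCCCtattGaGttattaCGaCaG

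Over the full coding sequence, GC content was 64.1% in Foxj1 and 41.2% in Ccdc39. It was 53.9% in Dnah10 and 42% in Dnah12. At the third position of the codon, where a base can often change without changing the protein, the share of G or C was 75.3% in Foxj1, 46.1% in Ccdc39, 74.6% in Dnah10 and 41.8% in Dnah12. Dnah10 and Dnah12 differed more at this position than over the whole coding sequence.

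Foxj1, the transcription factor at the head of the programme (ENSMUSG00000034227, chr11:116330704-116335399, minus strand, GRCm38), stood out. Bahd1-WT mice 1 to 3 had 212, 69 and 92 counts, and Bahd1-KO mice 1 to 3 had 169, 1600 and 406. In normalized CPM these were 2.32, 1.12 and 1.25 against 3.88, 16.8 and 7.01. All Bahd1-KO mice were above all Bahd1-WT mice, and Bahd1-KO mouse 2 was far above the rest. The means were 1.56 ± 0.656 CPM in Bahd1-WT and 9.23 ± 6.74 CPM in Bahd1-KO (SD, n = 3 each), a ratio of 5.91. The log2 fold change was 2.56 ± 0.54 (SE), with an adjusted p of 0.0634 by edgeR. Foxj1 also had the highest GC content of the members (61.4%), and the median log2 fold change of all genes in its GC bin was 1.63.

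After the offset, the Foxj1 level was 3.14, 2.22 and 2.1 CPM in Bahd1-WT mice 1 to 3 and 3.93, 5.34 and 4.93 CPM in Bahd1-KO mice 1 to 3. The groups still did not overlap, and the spread among the Bahd1-KO mice was much smaller. The log2 fold change with the offset was 0.93 ± 0.20 (SE), with an adjusted p of 0.0788 by edgeR. Foxj1 met the DEG criteria without Bahd1-KO mouse 2 (log2 fold change 1.80, edgeR adjusted p 0.046) and without Bahd1-KO mouse 1 (2.96). It also did with DESeq2 (2.59 without a prior on fold changes, adjusted p 3.03e-05) and in edgeR with low counts kept (adjusted p 0.00497). It did not without any of the other 4 mice, where the edgeR adjusted p was 0.104, 0.243 and 0.173 (Bahd1-WT mice 1 to 3) and 0.124 (Bahd1-KO mouse 3). With the replicate block the edgeR adjusted p was 0.122, with offset and block 0.181, and with the offset without Bahd1-KO mouse 2 it was 0.171. The direction of Foxj1 was higher in Bahd1-KO in every setting tried.

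**Figure D3:**
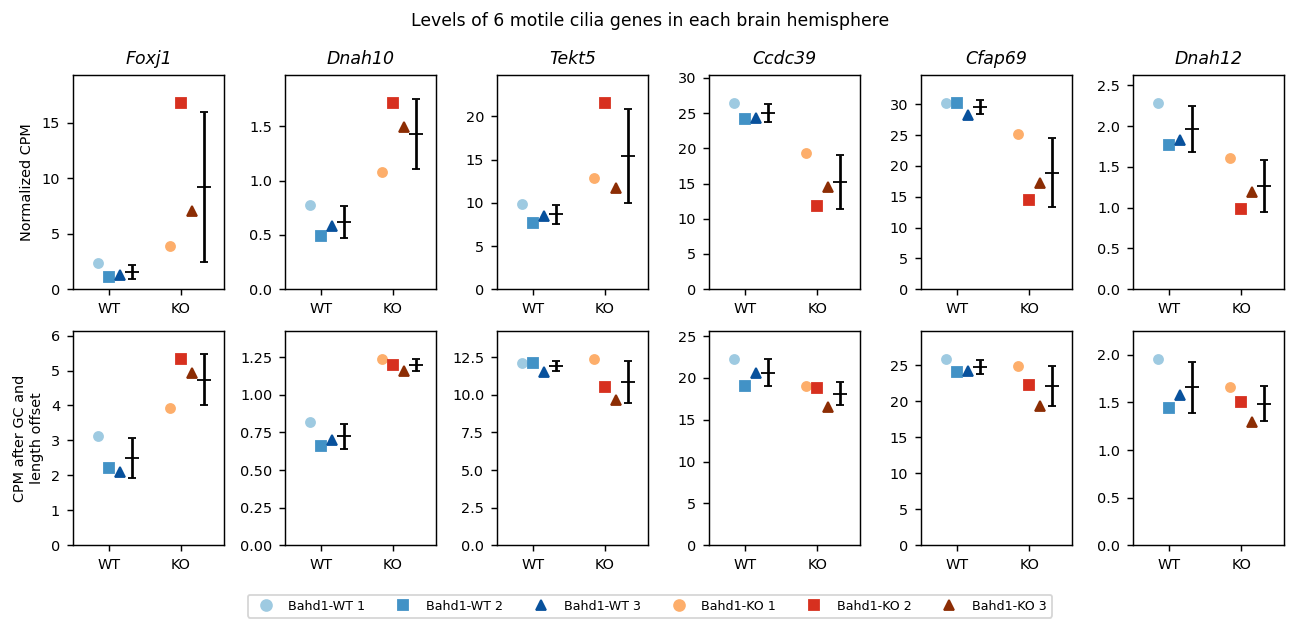
Each column is 1 gene and each point 1 mouse, with normalized CPM in the upper row and CPM after the GC and length offset in the lower row. Black bars are the mean and SD of the 3 mice of a genotype. Foxj1 and Dnah10 (higher in Bahd1-KO) and Ccdc39 (lower) are separated by genotype in both rows, Ccdc39 only narrowly in the lower row. The genotypes overlap in the lower row for Tekt5, Cfap69 and Dnah12.

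Outer arm dyneins power the beat. The 5 heavy chains Dnah5, Dnah8, Dnah9, Dnah11 and Dnah17 had log2 fold changes from -0.39 to 0.93 (median 0.08), and 0 of 5 had an unadjusted p under 0.05 as fitted (all genes, 31.8%), or 1 of 5, Dnah8, with the offset (all genes, 21.4%). The ependymal outer arm chains Dnah5 and Dnah9 gave -0.39 and 0.08, and -0.17 and -0.01 with the offset. Dnah8, best known from the sperm tail, gave 0.40 (edgeR adjusted p 0.335), and 0.64 with the offset (adjusted p 0.18). It had 71, 36 and 35 counts in Bahd1-WT mice 1 to 3, and 33, 72 and 53 in Bahd1-KO mice 1 to 3. Dnah8 and Dnah17 were among 13 members with a mean under 1 CPM.

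The inner arm dyneins, which shape the waveform of the beat, were spread on both sides. Dnah10, which encodes a heavy chain of an inner arm dynein, was at 0.776, 0.486 and 0.586 CPM in Bahd1-WT mice 1 to 3, and at 1.08, 1.72 and 1.49 CPM in Bahd1-KO mice 1 to 3. The groups did not overlap. Its log2 fold change was 1.21 ± 0.29 (SE, edgeR adjusted p 0.0634), and 0.72 with the offset (adjusted p 0.102). After the offset its levels were 0.817, 0.657 and 0.699 against 1.24, 1.2 and 1.16 CPM. Dnah12 ran the other way, at 2.29, 1.77 and 1.83 CPM in Bahd1-WT mice and 1.61, 0.987 and 1.19 CPM in Bahd1-KO mice. With a log2 fold change of -0.65 (edgeR adjusted p 0.136), it was at -0.17 with the offset. Dnah1, another inner arm chain, gave 0.64 (edgeR adjusted p 0.126), and 0.22 with the offset.

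The assembly factors for dynein arms were few and GC-rich (median 57.8%). Dnaaf3, which acts in the cytoplasm while the arms are built, had 15, 5 and 10 counts in Bahd1-WT mice 1 to 3, and 5, 154 and 32 counts in Bahd1-KO mice 1 to 3. Its groups overlapped, since Bahd1-KO mouse 1 was as low as the Bahd1-WT mice. The log2 fold change of 2.60 ± 0.78 (SE, edgeR adjusted p 0.074) was 1.23 with the offset, and without Bahd1-KO mouse 2 the fitted ratio dropped from 6.04-fold to 2.65-fold (edgeR adjusted p 0.209). An exon of Dnaaf3 overlaps the troponin gene Tnni3 on the same strand, so its count is uncertain. Dnaaf5 was at 4.27, 5.18 and 4.5 CPM in Bahd1-WT mice and 4.92, 6.02 and 5.84 CPM in Bahd1-KO mice, and its log2 fold change turned from 0.27 to -0.87 with the offset (edgeR adjusted p 0.123). Dnaaf3, Dnaaf5, Dnah8 and Cfap157 were singled out after their values were seen.

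The molecular ruler and the nexin link are represented by Ccdc39, Ccdc40 and Drc1. Ccdc39 and Ccdc40 form a pair of proteins that sets the repeat along the doublet, and Drc1 belongs to the nexin link. Ccdc39 was at 26.5, 24.2 and 24.3 CPM in Bahd1-WT mice 1 to 3, and at 19.3, 11.8 and 14.5 CPM in Bahd1-KO mice 1 to 3. All Bahd1-KO mice were below all Bahd1-WT mice. Its log2 fold change was -0.72 ± 0.21 (SE, edgeR adjusted p 0.0723), and -0.19 with the offset (adjusted p 0.379). With the offset Ccdc39 still did not overlap between groups, though narrowly. Its partner Ccdc40 gave 0.52 (edgeR adjusted p 0.294), and -0.15 with the offset. The log2 fold changes of the partners thus had opposite signs as fitted and the same sign with the offset, neither passing the test. Drc1 gave 0.23, and -0.07 with the offset.

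Among 12 genes of the radial spokes and central pair, 4 were higher and 8 lower (median log2 fold change -0.08, or -0.09 with the offset). The spoke head protein Rsph9 was at 2.24, 1.8 and 2.45 CPM in Bahd1-WT mice, and at 2.94, 6.71 and 3.26 CPM in Bahd1-KO mice. The log2 fold change of 1.00 (edgeR adjusted p 0.0971) became 0.07 with the offset. The spoke head proteins Rsph1 and Rsph4a gave 0.69 and -0.44, and 0.13 and -0.09 with the offset. Hydin, a very large central pair protein, gave -0.11 (edgeR adjusted p 0.788), and -0.12 with the offset. Spef2, another central pair protein, gave -0.60, and -0.15 with the offset. Cfap69 was at 30.3, 30.2 and 28.3 CPM in Bahd1-WT mice, and 25.2, 14.4 and 17.2 CPM in Bahd1-KO mice. This gave a log2 fold change of -0.65 (edgeR adjusted p 0.0994), and of -0.16 with the offset.

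The tektins and other proteins of the inner doublet wall had a median log2 fold change of 0.44 over 11 genes, and 0.16 with the offset. Tekt5 was at 9.89, 7.66 and 8.45 CPM in Bahd1-WT mice, and at 12.9, 21.6 and 11.7 CPM in Bahd1-KO mice. The groups did not overlap as fitted, where its log2 fold change was 0.83 (edgeR adjusted p 0.0837), whereas with the offset it was -0.14. Tekt1 was at 1.68, 1.72 and 1.72 CPM against 2.51, 3.95 and 2.54 CPM. It gave 0.82, and 0.50 with the offset (edgeR adjusted p 0.157). Tekt4 gave 1.33, from 1.34, 0.599 and 0.382 CPM in Bahd1-WT mice to 1.42, 3.28 and 1.16 CPM in Bahd1-KO mice, with groups that overlapped, and 0.16 with the offset. It was at 0.72 without Bahd1-KO mouse 2 and at 2.01 without Bahd1-WT mouse 1. Cfap45, a protein inside the doublet, gave 0.65 and, with the offset, 0.63 (edgeR adjusted p 0.129), a value that the offset left almost where it was.

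The other 14 genes, most of them Cfap genes, had 9 higher and 5 lower, with a median of 0.26 (0.03 with the offset). Cfap157 had 15, 7 and 18 counts in Bahd1-WT mice 1 to 3, and 14, 68 and 22 in Bahd1-KO mice 1 to 3. Scaled for depth, each Bahd1-KO mouse was above each Bahd1-WT mouse, and the log2 fold change was 1.45 (edgeR adjusted p 0.0729), or 0.75 with the offset (adjusted p 0.25). Cfap97, the second most abundant member by CPM, was at 55.4, 58.5 and 56.8 CPM in Bahd1-WT mice, and at 47.8, 33.9 and 44.5 CPM in Bahd1-KO mice. All Bahd1-KO mice were lower, with a log2 fold change of -0.43 (edgeR adjusted p 0.129) that was 0.03 with the offset.

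Levels per kilobase of exon set the members in another order. Cfap36 was highest, at a mean of 48.6 CPM per kb over the 6 mice, followed by Cfap20 at 10.6, Cfap97 at 9.6 and Tekt5 at 6.66. Drc1 (3.72), Rsph1 (3.43), Cfap69 (3.07) and Ccdc39 (2.7) came next, and Foxj1 had 2.06 CPM per kb. The lowest was the dynein heavy chain Dnah17 at 0.0118 CPM per kb, followed by Dnah8 at 0.0265 and Tekt3 at 0.0494. Cfap36 was at 135, 173 and 147 CPM in Bahd1-WT mice 1 to 3, and at 151, 97 and 97.8 CPM in Bahd1-KO mice 1 to 3. These groups overlapped, and its log2 fold change was -0.40 (edgeR adjusted p 0.219), or -0.14 with the offset. Ak7, an adenylate kinase of motile cilia, was at 3.26, 3.43 and 4.24 CPM against 3.75, 3.99 and 3.4 CPM, with a log2 fold change of 0.03, or 0.08 with the offset.

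Other genes of the ciliary programme were read from lists outside the 57. Over all genes, 19.9% were higher and 12% lower at an unadjusted p under 0.05, 31.8% in all. That share was 38.9% for multiciliation control, 42.1% for dynein arm partners, 25% for spoke, link and central pair partners and 30.3% for intraflagellar transport genes. Multiciliation control had 18 of 19 genes tested. It had 9 higher, 4 higher and 3 lower at an unadjusted p under 0.05, and a median log2 fold change of 0.06, or -0.06 with the offset. Dynein arm docking and assembly partners had 12 of 19 tested genes higher (6 higher and 2 lower at p under 0.05) with a median of 0.32, or 0.08 with the offset. Spoke, nexin link and central pair partners had 12 of 24 higher (5 and 1) and a median of 0.02, or -0.02 with the offset. Intraflagellar transport and primary cilium genes, which serve nonmotile cilia too, had 14 of 33 higher (5 and 5) with a median of -0.12, or 0.03 with the offset. By edgeR with all 6 mice, 0 genes of each list met the DEG criteria. DESeq2 without a prior called 3, 4, 1 and 2 genes of the 4 lists in this order (all genes, 11.5%). Each of them was higher, as were most calls over all genes (10.5% higher and 1.06% lower). With low counts kept, edgeR called 3, 3, 1 and 2 (all genes, 8.45%).

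Single genes of these lists, singled out after their values were seen, ran in both directions. Rfx2, an RFX factor that works with Foxj1, was at 0.918, 0.502 and 0.818 CPM in Bahd1-WT mice, and at 1.47, 3.79 and 1.99 CPM in Bahd1-KO mice. Its log2 fold change was 1.70 (edgeR adjusted p 0.0634), and 1.09 with the offset (adjusted p 0.0823). Mcidas and Gmnc, which act above Foxj1 when a cell commits to making many cilia, were lower in each Bahd1-KO mouse than in each Bahd1-WT mouse. Mcidas had 35, 22 and 23 counts against 7, 17 and 12 counts, and log2 fold changes of -0.94 as fitted and -1.47 with the offset (edgeR adjusted p 0.0811). Gmnc gave -0.77, and -0.15 with the offset. The outer arm docking gene Ccdc114, at a GC content of 47.7%, gave 1.00 and, with the offset, 1.14 (edgeR adjusted p 0.0947).

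**Figure D4:**
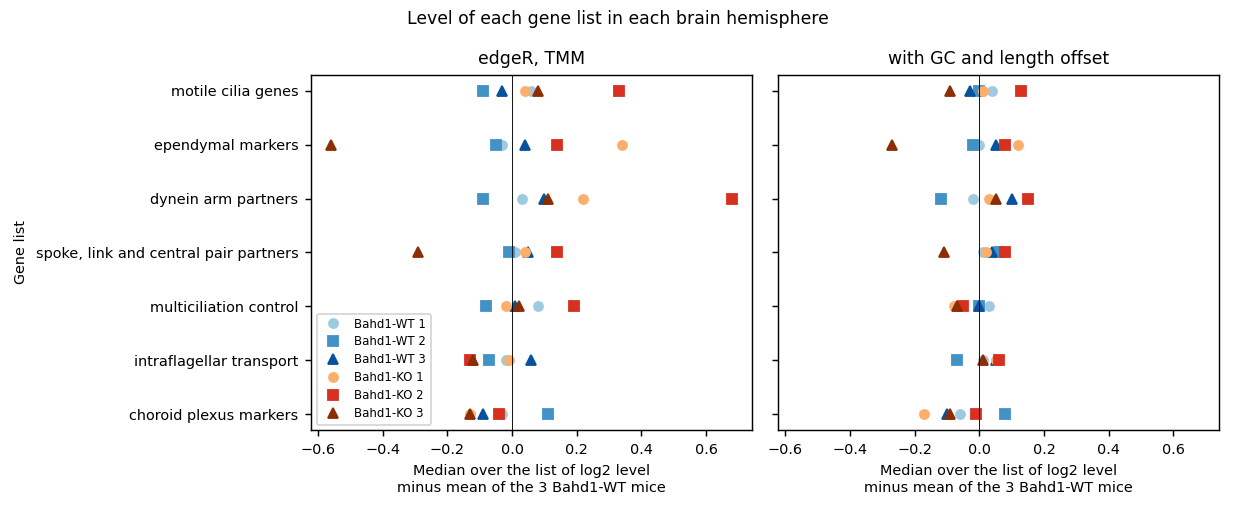
Each row is a gene list and each point 1 mouse. The x axis is the median over the list of the log2 level minus the mean of the 3 Bahd1-WT mice, as fitted on the left and with the GC and length offset on the right. For the motile cilia genes Bahd1-KO mouse 2 stands at 0.33 on the left and at 0.13 on the right.

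Markers of ependymal cells were present in all 6 libraries, but bulk counts do not tie the 57 genes to these cells. Cfap36 alone, at a mean of 133 CPM, was above the summed level of all 11 ependymal markers in every library. Of 11 markers outside the 57, 6 were higher. At an unadjusted p under 0.05, 2 were higher (all genes, 19.9%) and 0 lower (all genes, 12%). The median log2 fold change of the 11 was 0.08, or 0.06 with the offset. This median was -0.21 without Bahd1-KO mouse 1 and 0.28 without Bahd1-KO mouse 3. Their summed level was 62.5, 73.1 and 92.3 CPM in Bahd1-WT mice 1 to 3, and 75.1, 58.5 and 51.9 CPM in Bahd1-KO mice 1 to 3, so the ranges overlapped. Ccdc153 was at 2.29, 1.89 and 1.72 CPM against 3.61, 5.12 and 4.06 CPM. It had a log2 fold change of 1.12 (edgeR adjusted p 0.0634), and 0.99 with the offset (adjusted p 0.0788). Tmem212 and Rarres2, which with Ccdc153 head the list as its defining genes, gave 0.70 and 0.62, and 0.58 and 0.50 with the offset. The 5 markers below 0 were Cd24a (-0.65), the most abundant of the 11, Tm4sf1 (-0.40), Meig1 (-0.29), Mia (-0.23) and Sntn (-0.23), with -0.30, -0.02, 0.06, -0.38 and 0.18 with the offset. None of these 5 had an unadjusted p under 0.05.

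Other tissues that bear motile cilia, or that lie beside the ependyma, were checked by their markers. All 12 airway and lung markers were lower in Bahd1-KO, 10 of them at an unadjusted p under 0.05 (all genes, 12% lower). Their median log2 fold change was -5.52, or -5.14 with the offset. Their summed level was 124, 28.4 and 2.8 CPM in Bahd1-WT mice 1 to 3, against 0.781, 2.15 and 1.57 CPM in Bahd1-KO mice. The club cell secretory gene Scgb1a1 had 4448, 922 and 69 counts against 5, 1 and 4 counts. Airway epithelium carries motile cilia too. In 10 of the 57 members the 3 Bahd1-WT mice stood in the same order of level as for the sum of these markers. This share (17.5%) was near that of all genes (16.4%). Among the Bahd1-WT mice, Foxj1 was highest in mouse 1 but lower in mouse 2 than in mouse 3, and so was not in this order. Without Bahd1-WT mouse 1 the members' median log2 fold change was 0.20, with 35 higher and 0 called. Scgb3a2 and Sftpa1 were at 0 counts in Bahd1-KO mouse 1. The part of these markers in the single gene values was not tested.

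The choroid plexus, which grows from the ventricle wall, had 4 of 10 markers higher and a median log2 fold change of -0.09, or -0.13 with the offset. Its summed level was 422, 412 and 326 CPM in Bahd1-WT mice and 499, 1118 and 654 CPM in Bahd1-KO mice. Most of this was transthyretin, Ttr, at 309, 285 and 213 CPM against 402, 1018 and 554 CPM, highest in the mouse that also had the highest Foxj1. The choroid markers Folr1 and Kl gave log2 fold changes of 0.66 and -0.40, and -0.04 and -0.29 with the offset. How far choroid plexus tissue contributed to the members was not tested. Tanycyte markers had 4 of 6 higher and a median log2 fold change of 0.22, or 0.01 with the offset. At an unadjusted p under 0.05, 2 of these markers were higher (all genes, 19.9%) and 1 lower (all genes, 12%). Their defining gene Rax had 0, 2 and 1 counts in Bahd1-WT mice 1 to 3 and 4, 22 and 2 counts in Bahd1-KO mice 1 to 3, too few for a fold change to be given. The sperm genes Prm1, Prm2 and Tnp1 had 0 or 1 counts in each library, and Spata18 was the only 1 of 8 spermatid markers that could be tested. The median log2 fold change was -0.01 for 8 astrocyte, -0.06 for 8 neuron and -0.10 for 8 oligodendrocyte markers, and -0.05, -0.05 and -0.09 with the offset.

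Promoters of the members were searched for the elements that ciliary factors read. RefSeq windows of 300 bases (250 before and 50 after a start, GRCm38.p6) were at hand for 46 of the 57 genes, in 52 windows. The RFX element GTTGCC, on either strand, was in 18 of the 52 windows (34.6%), compared with 12.5% of all 32851 windows. A looser paired form, GTNNCC followed within 3 bases by GGNNAC, which can overlap the first element, was in 9 windows (17.3%), compared with 3.86% of all. The strict pair, GTTGCC followed within 3 bases by GGCAAC, was in 0 of the 52 windows, compared with 0.161% of all. The forkhead element GTAAACA, on either strand, was in 5 windows (9.62%), compared with 3.65%. Motif matches are letters in a window and not binding, and no binding was measured. The windows of members had a median GC content of 56%, and those of all genes 52.7%.

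The paired form is shown in capitals in 4 of the 9 members that have it, with the bases around it, to let its spacing be seen.
Cfap126, chr1:171122923-171123016, plus strand: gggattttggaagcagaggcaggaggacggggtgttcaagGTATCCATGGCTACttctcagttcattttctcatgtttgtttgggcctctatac
Cfap58, chr19:47937613-47937705, plus strand: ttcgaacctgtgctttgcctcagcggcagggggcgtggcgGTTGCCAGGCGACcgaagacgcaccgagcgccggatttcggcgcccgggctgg
Cfap206, chr4:34730207-34730269, minus strand: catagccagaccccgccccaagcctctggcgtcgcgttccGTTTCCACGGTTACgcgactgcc
Tekt4, chr17:25471390-25471483, plus strand: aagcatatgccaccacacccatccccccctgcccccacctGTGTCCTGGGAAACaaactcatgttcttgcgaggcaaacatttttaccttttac

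The 9 genes with the paired form had log2 fold changes from -0.60 to 1.33, on both sides of 0. Beside the 4 shown they were Cfap43 (-0.28), Cfap77 (0.29), Dnaaf5 (0.27), Rsph9 (1.00) and Spef2 (-0.60). Cfap126, a protein of the basal body and cilium, was at 2.97, 2.66 and 2.35 CPM in Bahd1-WT mice and 2.71, 6.12 and 3.33 CPM in Bahd1-KO mice. Its log2 fold change was 0.62 (edgeR adjusted p 0.214). Cfap58 and Cfap206 gave 0.30 and -0.04, and Tekt4 gave 1.33, none of them past the DEG criteria by edgeR, while DESeq2 called Tekt4. With the offset the values were 0.46 for Cfap126, 0.31 for Cfap58, 0.05 for Cfap206 and 0.16 for Tekt4.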

How the data were processed

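RNA was extracted from a hemisphere of each mouse, and the authors made stranded libraries of polyadenylated RNA. The authors deposited whole-number read counts per gene, unnormalized, for 53801 Ensembl genes, with 0 columns of other samples. Submitters' processing notes name cutadapt 1.11, STAR 2.5.0a and featureCounts 1.4.6-p3 on GRCm38, and the study's methods also name Tophat2 and different sequencers. These methods give a forward strand setting for a stranded kit of the reverse type. The neuronal gene Snap25 was at 2944 to 4582 CPM, so sense reads were counted, but whether antisense reads were counted as well was not tested.

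From these counts, the 23975 genes whose 6 counts summed to 10 or more were tested for genotype in edgeR 4.0.16 (R 4.3.3) with TMM factors and the quasi-likelihood test, with Benjamini-Hochberg adjustment over all genes tested. Normalized CPM used TMM library sizes. Spearman coefficients across genes are descriptions. The GC and length offset was a spline (5 and 3 degrees of freedom) fitted in each library to 13250 genes with a log2 CPM above 1. DESeq2 1.42.0, other scalings, filters, a replicate block and leaving out each mouse were alternatives. Gene symbols, positions and GC content came from GENCODE M21.

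Members and gene lists were chosen with earlier results of these data known. Genes named with values were those the rule gives by name, any called, and, among members with a mean of at least 1 CPM, the 12 with the largest change and the 12 highest per kb. Other members named with values were chosen after their values were seen. Depth limits the 13 members under 1 CPM the most.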

Additional observations from a re-analysis of the deposited data

How the results depend on the processing

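DEG calls among the members depended on the tool and the libraries. By edgeR 0 were called and 19 had an unadjusted p under 0.05, whereas DESeq2 called 6 without a prior and 5 with one (all genes, 11.5% and 10.5%), and edgeR without the filter on low counts called 4 (8.45%). Every call was higher in Bahd1-KO, as were most calls over all genes (DESeq2 without a prior, 10.5% higher and 1.06% lower). Leaving out each mouse gave 0 to 6 calls, with 6 without Bahd1-KO mouse 1 (16.7% of all genes) and 1, Foxj1, without Bahd1-KO mouse 2. Over the fits that left out a mouse, the median log2 fold change was 0.04 to 0.25 and the number higher 30 to 36. The median was 0.05 over the 44 genes left by a filter at 1 CPM. It was 0.00 with the offset, 0.01 with offset and replicate block, and -0.07 with the offset without Bahd1-KO mouse 2, where 22 members were higher. The last alternative was chosen after the data were seen. Upper-quartile factors moved the median of all genes from -0.06 to -0.20 and that of the members to 0.08, with 29 higher.

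The replicate block, which takes the labels' numbers as pairs, gave 0 calls, a median of 0.19, 34 members higher and 11 at an unadjusted p under 0.05 (all genes, 21.8%). Whether the numbers pair the mice is unknown. Same-numbered mice had correlations of -0.646, -0.660 and -0.139 in their deviations, and mice of unlike number had -0.095 to 0.635. These correlations cannot decide it, since deviations within a genotype of so few mice depend on each other and the libraries differed along GC content. No DEG call among the 57 changed with the replicate block. Their count at an adjusted p under 0.1 went from 9 (all genes, 19.5%) to 0 (all genes, 0.0375%). With the block, 4 airway and lung markers were called lower (all genes, 0.0209%).

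With the offset, 17 of the 57 members changed sign. Among the 22 members named by rule, 7 changed sign in some setting. With the offset, with offset and block, and with the offset without Bahd1-KO mouse 2, the log2 fold change was -0.15, -0.14 and -0.25 for Ccdc40, 0.03, 0.02 and 0.01 for Cfap97, -0.07, -0.06 and -0.13 for Drc1, and -0.14, -0.14 and -0.10 for Tekt5. Rsph9 was at -0.04 and Ak7 at -0.00 in the last of these. Ak7 was also at -0.12 with upper-quartile factors, and from -0.05 (without Bahd1-WT mouse 1) to 0.15 (without Bahd1-WT mouse 3) when a mouse was left out. Hydin ranged from -0.19 (without Bahd1-KO mouse 2) to 0.09 (without Bahd1-KO mouse 1) when a mouse was left out, and was at -0.25 with upper-quartile factors. The offset's own construction removes changes along GC content, whatever their origin.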
